A study of Mus musculus with 22 samples.

Results

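Gene expression was compared by RNA-seq between 3T3-L1 cells labelled siPcf11 and untreated 3T3-L1 cells, with 1 library for each. These were the 2 RNA-seq libraries of a series of 22 mouse libraries, chosen by their titles, and every gene in their count tables was used. 3T3-L1 is a mouse preadipocyte line, here with the strain label C57BL/6, and both libraries were made from total RNA. Of the siPcf11 library the labels say that the cells received a small interfering RNA (siRNA) against Pcf11, and of the control that it was untreated. No control siRNA is named, so effects of Pcf11 and of transfection as such cannot be told apart. No time after transfection and no day of differentiation are given for these samples. With 1 library a side there is no replicate check, so each difference is between these libraries and not between conditions.

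PCF11 is a subunit of cleavage factor II, which works with the larger cleavage and polyadenylation complexes to cut the nascent transcript and add its poly(A) tail. PCF11 also binds the tail of RNA polymerase II and takes part in ending transcription. 3T3-L1 cells grow as fibroblast-like preadipocytes that secrete a collagen-rich matrix. After hormonal induction they become fat-storing adipocytes, a step driven by the transcription factors PPARγ and C/EBPα.

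The label was checked first on Pcf11 itself, which did not have a lower level. The control held 939 counts of it and the library labelled siPcf11, the shallower of the pair, 840. As CPM, counts scaled to library size, these were 108 and 121 CPM, a log2 ratio of 0.17. Pairs of counts are given below with the control first. The 95% counting interval of that ratio, which comes from the exact binomial distribution of the counts and covers counting error only, ran from 0.03 to 0.30. Pcf11 therefore goes against the label, and all ratios here are of the library labelled siPcf11 over the control, whatever its cells had received.

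The other factors of 3′ end formation differed little and in both directions. Of 31 genes of 3′ end processing and termination, all counted, 18 had a log2 ratio above 0 and 13 below, with a median of 0.08. Clp1, the partner of Pcf11 in cleavage factor II, had 274 and 247 counts (log2 ratio 0.18, interval -0.08 to 0.43). All 4 genes of the cleavage stimulation factor, which binds downstream of the cleavage site, were below 0, from -0.06 for Cstf1 to -0.31 for Cstf3. Within the cleavage and polyadenylation specificity factor, which recognises the poly(A) signal, Cpsf1 (758 and 470 counts, -0.36) and Cpsf4 (166 and 96 counts, -0.46) were lower. In the same complex Cpsf3, its endonuclease, was at 0.22 and the scaffold Sympk at 0.24. Rbbp6 (0.21) and the poly(A) polymerase Papola (0.19) were higher, and Pabpn1, the nuclear poly(A) binding protein, was at -0.11. The largest ratio of the group belonged to Ssu72, a phosphatase of the polymerase tail, with 276 and 378 counts (0.78, interval 0.55 to 1.01). Polr2a, the largest subunit of that polymerase, was at -0.09, and the termination exonuclease Xrn2 at -0.02.

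The control held 8573956 counts and the library labelled siPcf11 6992460. Together they list 11355 genes, of which 11186 are in both, and neither lists a gene with fewer than 5 counts. Across the 9143 genes with at least 100 counts summed over the libraries, the log2 CPM values had a Pearson's r of 0.98. This describes genes, which are not independent replicates. Ratios were read from the same 9143 genes, which held 99.3% of the control counts and 99.4% of the others. Their median log2 ratio was 0.00 and their standard deviation 0.30. A ratio above 0 was found for 4606 of these genes (50.4%) and one below 0 for 4537. At least 1.5-fold higher were 197 genes, or 2.15%, and at least 1.5-fold lower 317 genes, or 3.47%. At least 2-fold higher were 9 genes (0.0984%) and 35 were at least 2-fold lower (0.383%). The ratios of the other 94.4% lay within 1.5-fold. These shares over all counted genes are the background for the gene lists below. They are not matched for depth, and large ratios were more common at low counts. All lists were chosen with earlier results of these data known, so list counts are descriptions.

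The spread of the ratios exceeded counting error at every depth. Between 100 and 300 counts the standard deviation of the log2 ratio was 0.41, where counting alone gives about 0.22. At 10000 counts and more it was 0.17, where counting gives 0.02. Counting intervals excluded 0 above it for 1786 genes (19.5%) and below it for 1804 (19.7%), so an interval off 0 was common in this pair and marks no gene out. The median log2 ratio rose with depth, from -0.02 for 100 to 300 counts to 0.07 for 10000 counts and more. A useful yardstick is the range holding the central 95% of genes of like depth. That range ran from -0.87 to 0.77 for 100 to 300 counts, from -0.57 to 0.51 for 300 to 1000, from -0.45 to 0.40 for 1000 to 3000, from -0.32 to 0.36 for 3000 to 10000, and from -0.24 to 0.38 above that.

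**Figure D1:**
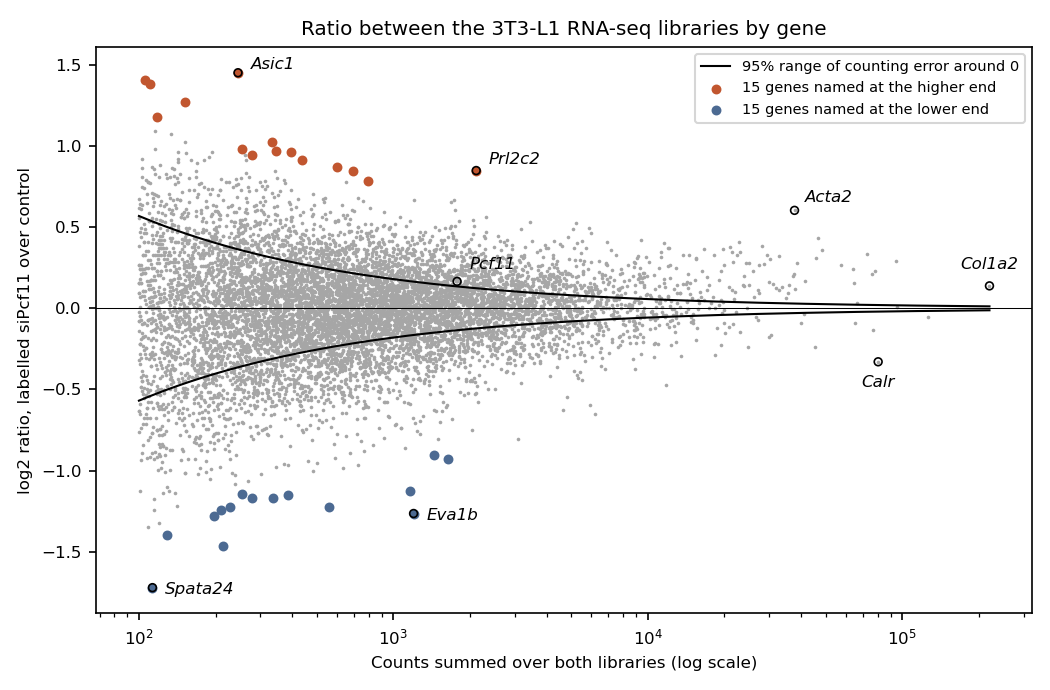
Each point is 1 of 9143 genes, with the counts summed over both libraries on a log axis and the log2 ratio of the library labelled siPcf11 over the control on the vertical axis. Black curves mark the 95% range of counting error around 0, colours mark the 15 genes named at each end, and circles mark the genes with names. Many points lie outside the curves at every depth, Pcf11 lies just above 0, and among the deepest genes Acta2 stands above the rest and Calr below.

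The expression profile was that of matrix-producing fibroblasts in both libraries. Of 14 fibroblast and preadipocyte markers 12 were counted and 2, Cd34 and Lum, were not listed. Their summed level was 37540 CPM in the control and 40792 CPM in the library labelled siPcf11. Col1a2 took the most reads of any gene in both libraries, 1.37% and 1.47%, followed in the control by Col1a1 with 0.829%. Shares of reads depend on transcript length, and no lengths were used here, so they do not rank transcripts by number. Among the markers, the intermediate filament gene Vim had 29358 and 28142 counts (log2 ratio 0.27) and fibronectin, Fn1, 47730 and 46513 (0.29). Thy1, a surface marker of fibroblasts, was at 0.23, and the collagenase Mmp2 at 0.15. Col3a1 (0.03), Pdgfrb (0.02) and Ly6a (0.04) were close to 0, and the first 2 were below it when scaled by library totals. Pdgfra, the receptor that marks adipocyte progenitors, had 1041 and 780 counts (-0.09, interval -0.23 to 0.05), S100a4 was at 0.11, and the proteoglycan gene Dcn had only 99 and 66 counts.

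Defining markers of other cell types were mostly not listed. Of 11 mature adipocyte markers 8 were unlisted in both libraries, among them Adipoq, Plin1, Lep and Cebpa. None of the epithelial markers was counted, and Krt8, with 11 counts in the control, was the only one listed. For macrophages and leukocytes Ptprc, Adgre1 and Itgam were unlisted, and Cd14 alone was counted, with 57 and 71 counts. For muscle Myod1, Myf5 and Myog were unlisted, and skeletal actin, Acta1, had 334 and 328 counts (0.30). Of the smooth muscle markers Acta2 and Tagln were counted, while Myh11, Cnn1, Cspg4 and Rgs5 were unlisted. The osteochondral regulators Sox9 (721 and 516 counts) and Runx2 (265 and 204) were counted, and Sp7, Bglap and Ibsp were not listed. Of the neural markers Nes (85 and 98) and Tubb3 (61 and 40) were counted, and 6 of 9 were unlisted. In bulk RNA, fewer cells of a type and less RNA per cell cannot be told apart.

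**Figure D2:**
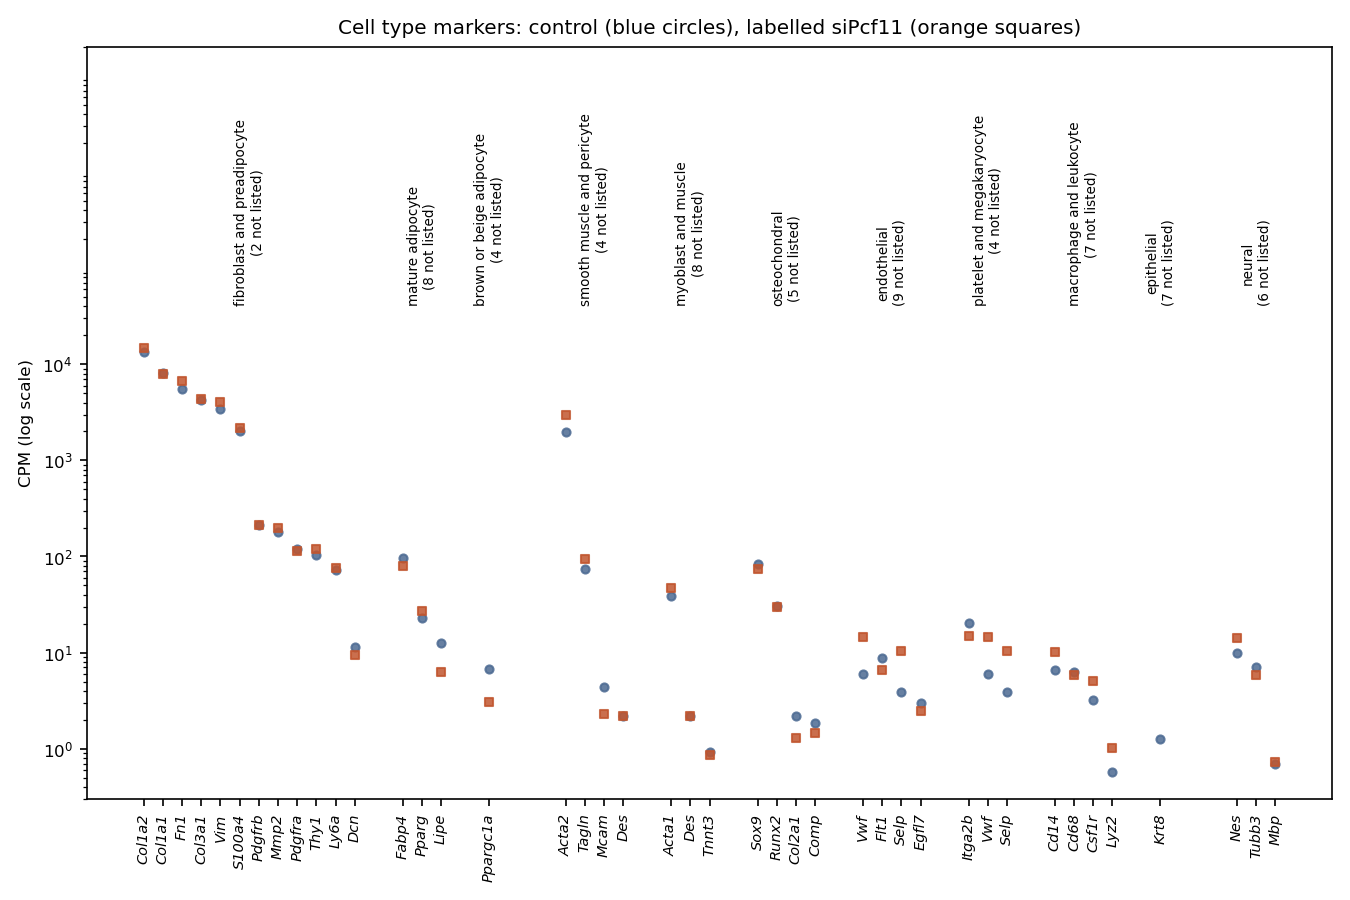
Level in CPM on a log axis of every listed marker, grouped by the cell type it marks, with the control as blue circles and the library labelled siPcf11 as orange squares. The number of markers of each type that neither library lists stands above its group. Fibroblast markers reach over 10000 CPM, and outside that group only Acta2 passes 1000 CPM.

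The genes with the highest lower bounds of the counting interval were mostly of low count. Asic1, an acid-sensing ion channel, led them with 77 and 168 counts (log2 ratio 1.45, interval 1.05 to 1.86). Next in ratio were Selp, the adhesion receptor P-selectin, with 34 and 72 counts (1.41, interval 0.80 to 2.04), and Tmcc3, a coiled-coil membrane protein, with 36 and 75 (1.39, interval 0.79 to 2.00). Vwf, the clotting protein von Willebrand factor, had 52 and 100 counts (1.27, interval 0.77 to 1.78). F8, coagulation factor VIII, which circulates bound to von Willebrand factor, had 43 and 73 (1.09, interval 0.53 to 1.67). F8 lies outside the rule that chose the end genes and was looked up after its value was seen. Selp, Vwf and factor VIII are best known from endothelial cells and platelets. In both libraries the endothelial markers Pecam1, Cdh5, Kdr, Tek, Tie1, Sele, Esam, Cldn5 and Emcn were unlisted, as were the platelet genes Gp1ba, Gp9, Pf4 and Ppbp. Flt1 (77 and 46 counts) and Itga2b (175 and 103), markers of these types that were counted, were lower, at -0.42 and -0.44. The summed level of the 13 endothelial markers was 21.8 CPM and 34.0 CPM, and of the 7 platelet markers 30.1 CPM and 39.8 CPM. Both sums include Vwf (6.00 and 14.5 CPM) and Selp (3.92 and 10.4 CPM), which were named for their high ratios. Every other listed marker of these types, namely Flt1, Itga2b and Egfl7 (26 and 17 counts), was lower.

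The deepest gene at this end was Prl2c2, which encodes proliferin, a secreted prolactin-like hormone first known from growing mouse fibroblasts. It had 868 and 1247 counts (log2 ratio 0.85, interval 0.72 to 0.98). Proliferin genes are near-identical copies, and how reads shared among them were counted is not given, so the split among them is uncertain. Prl2c5, another copy, had 484 and 525 counts (0.44, interval 0.26 to 0.63).

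The other genes at this end were of varied function. Dad1, a subunit of the complex that attaches sugar chains to new proteins, had 174 and 262 counts (0.92). Man1a, a Golgi mannosidase that trims those chains, had 285 and 409 (0.85), and Lipa, the acid lipase of lysosomes, 336 and 462 (0.79). Also at this end were Aoc2, a copper amine oxidase (127 and 206 counts, 1.02), Creld1 (42 and 76, 1.18), Cmss1 (99 and 156, 0.98) and Klhl21, an adaptor of a ubiquitin ligase (135 and 211, 0.97). Dmpk, the kinase gene altered in myotonic dystrophy, had 155 and 241 counts (0.96), the collagen chain Col11a2 243 and 355 (0.87) and the mitochondrial leucyl-tRNA synthetase Lars2 110 and 169 (0.95). Aoc3, a related copy of Aoc2, had 137 and 157 counts (0.52). Cmss1 overlaps Filip1l in the RefSeq gene table, and Filip1l, with 2589 and 1714 counts, was at -0.27.

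Of the 15 genes named at the lower end 13 were at least 2-fold lower (1.87-fold to 3.30-fold), and of the 15 at the higher end 6 were at least 2-fold higher (1.72-fold to 2.74-fold). The median of the summed counts was 279 at the lower end and 333 at the higher. Eva1b, a small membrane protein, had 901 and 299 counts (log2 ratio -1.26, interval -1.46 to -1.07). Rin1, an effector of Ras that activates Rab5, had 854 and 312 (-1.13, interval -1.32 to -0.94). Plin4, a coat protein of lipid droplets, had 1158 and 485 (-0.93, interval -1.08 to -0.77), and Mpnd 1012 and 431 (-0.90, interval -1.07 to -0.74). All 4 were far below the central 95% of genes of their depth.

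The rest of the lower end were single genes of unlike function. Dpt, dermatopontin, a matrix protein that binds decorin and collagen fibrils, had 416 and 142 counts (-1.22, interval -1.51 to -0.95). Pgghg, a glucosidase acting on the sugars of collagen, had 166 and 48 (-1.46, interval -1.96 to -0.99). Gmppb, which makes GDP-mannose, had 284 and 102 (-1.15), and Dcxr, a xylulose reductase, 248 and 88 (-1.17). The others included Trappc2l, a subunit of the TRAPP tethering complex (206 and 73 counts, -1.17), Cplx2, a complexin that binds SNARE proteins (170 and 58, -1.22) and Txlng, a taxilin (99 and 30, -1.40). U2af1l4, a relative of the splicing factor U2af1, had 149 and 49 counts (-1.28, interval -1.77 to -0.80), while U2af1 itself had 1294 and 1220 (0.24). Spata24 (91 and 22 counts, -1.72), Fam173a (157 and 53, -1.24) and Nudt18, a nucleotide hydrolase (186 and 67, -1.15), complete the group.

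Of the lower-end genes, 14 are in the RefSeq gene table and 6 of these overlap another listed gene, against 1 of the 15 at the higher end. The share over all counted genes was not computed, so these counts mark out neither end. Whether the counting used strand is not given, so reads of overlapping genes cannot be told apart. Psenen, which overlaps U2af1l4, had 17 and 6 counts, in the same direction (-1.18). The genes overlapping Gmppb (Rnf123, 0.11), Txlng (Rbbp7, -0.11), Trappc2l (Galns, 0.12), Plin4 (Hdgfl2, -0.32) and Mpnd (Sh3gl1, 0.28) had ratios far from those of their partners.

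**Figure D3:**
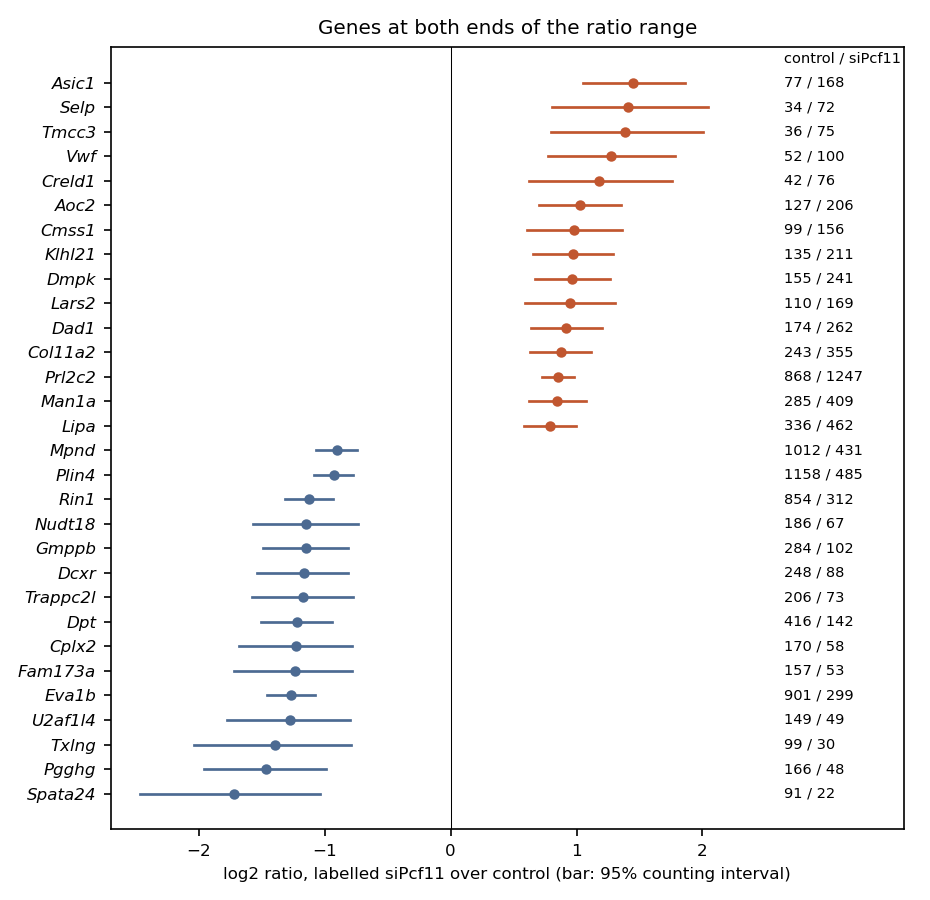
Log2 ratio of the 15 genes named at each end, as points with 95% counting intervals as bars, and both counts at the right, control first. Every bar lies clear of 0, which follows from the choice of genes by these intervals. The bars of Prl2c2, Plin4, Mpnd, Rin1 and Eva1b are the shortest.

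Just outside the rule lay, at the higher end, Ppm1d, a phosphatase of the p53 pathway (103 and 158 counts, lower bound 0.58), Acta2 (0.57) and Llgl2 (0.55), against 0.58 for Lipa just inside. At the lower end Zfp652, Fibp and Mmp23 had upper bounds from -0.74 to -0.72, against -0.74 for Nudt18 just inside. Only the control listed 163 genes and only the library labelled siPcf11 6. The highest of the former was Atp8b5 with 31 counts, and the highest of the latter had 14 counts. If unlisted means fewer than 5 counts, Atp8b5 was at least 4.94-fold lower, with counting error left out. Whether it was unlisted for that reason is not given.

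Interferon response genes had a larger share of ratios above 0 than all counted genes. Like every list here, this one was chosen with earlier results of these data known, so its counts are descriptions. Cells that detect viral nucleic acid release type I interferon, whose receptor activates a transcription factor containing STAT2 and IRF9 to switch on antiviral genes. Of 72 genes of this response 45 were counted, 18 were listed below 100 counts and 9 were unlisted. Of the 45 counted, 36 had a log2 ratio above 0 and 9 below, against 4606 of 9143 genes above 0. At least 1.5-fold higher were 7 of the 45 and at least 1.5-fold lower 2, against 2.15% and 3.47% of all counted genes. Those shares are not matched for depth. Among the 2257 genes with 100 to 300 counts, 349 were past 1.5-fold in either direction. The median of the 45 was 0.18. At a minimum of 30 counts the median was 0.26 (58 genes), and at 300 counts 0.12 (30 genes). By role, 5 of the 6 counted sensors were above 0 (median 0.29), 18 of the 21 antiviral effectors (median 0.27), 7 of the 8 genes of antigen presentation (median 0.14) and 6 of the 10 of signalling (median 0.01). A response of interferon genes is known after transfection of nucleic acid, and with an untreated control that part of the difference cannot be told apart.

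Among the sensors, Tlr3, the endosomal receptor for double-stranded RNA, had 64 and 81 counts (log2 ratio 0.67, interval 0.18 to 1.16). Mb21d1, the DNA sensor cGAS, had 93 and 104 (0.49), and Ddx58, the RNA sensor RIG-I, 526 and 503 (0.26, interval 0.08 to 0.44). Ifih1, the RNA sensor MDA5, was below the minimum with 19 and 49 counts. Eif2ak2, the RNA-activated kinase PKR, with 1121 and 906 counts, was at 0.02, and Tmem173, the adaptor STING, at -0.06. The RNA sensors thus had unlike ratios.

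In the signalling chain, Irf9, of the interferon-activated factor, had 146 and 203 counts (0.80, interval 0.49 to 1.12), and its partner Stat2 had 327 and 295 (0.18, interval -0.05 to 0.41). Of the receptor chains, Ifnar1 was at 0.03 and Ifnar2, with 416 and 270 counts, at -0.30. Irf3, which starts interferon transcription, had 187 and 98 counts (-0.61, interval -0.97 to -0.25), and Irf1 had 730 and 694 (0.25). The kinases Jak1 (0.02, or -0.01 when scaled by library totals) and Tyk2 (0.00) were near 0.

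Of the 21 counted antiviral effectors, 5 passed 1.5-fold upward and 1 downward, against 2.15% and 3.47% of all counted genes. Here too the shares are not matched for depth. Oasl2, an oligoadenylate synthetase-like protein, had 156 and 215 counts (0.79, interval 0.49 to 1.10), and Isg15, a ubiquitin-like modifier, 93 and 127 (0.78, interval 0.38 to 1.18). Dtx3l, a ubiquitin ligase, had 95 and 130 (0.78, interval 0.39 to 1.18), with its partner Parp9 at 0.27 and Parp14 at 0.66. Ifit3, which binds viral RNA with its relatives, had 129 and 160 (0.64, interval 0.29 to 0.98), and Ifit2 had 179 and 191 (0.42). Ifit3 and Ifit2 lie within the central 95% of genes of their depth, and Oasl2, Isg15 and Dtx3l above it. Of the 12 effectors below the minimum, 10 had more counts in the shallower library labelled siPcf11, among them Mx2 (27 and 69), Usp18 (28 and 49), Gbp7 (21 and 41) and Xaf1 (6 and 22). Oas1g, with 23 and 8 counts (-1.20, interval -2.57 to 0.01), and Oas3, with 6 and 5, did not. The share over all genes below the minimum was not computed, so 10 of 12 has no background here. Counted effectors also pointed down: Uba7, the enzyme that activates Isg15, had 160 and 67 counts (-0.93, interval -1.36 to -0.51), Ifi35 had 300 and 169 (-0.50) and Ifi27, the effector with most reads, 4027 and 2515 (-0.35). Oas1a, Oas2, Rsad2, Ifi47 and Cmpk2, classical targets of interferon, were unlisted in both. In antigen presentation the class I heavy chains H2-D1 (116 and 133 counts, 0.52) and H2-K1 (505 and 527, 0.39) had ratios above 0. Both lie within the central 95% of genes of their depth. Their light chain B2m (1593 and 1322) was at 0.06. The H2 heavy chains are close copies, so the split between them is uncertain.

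**Figure D4:**
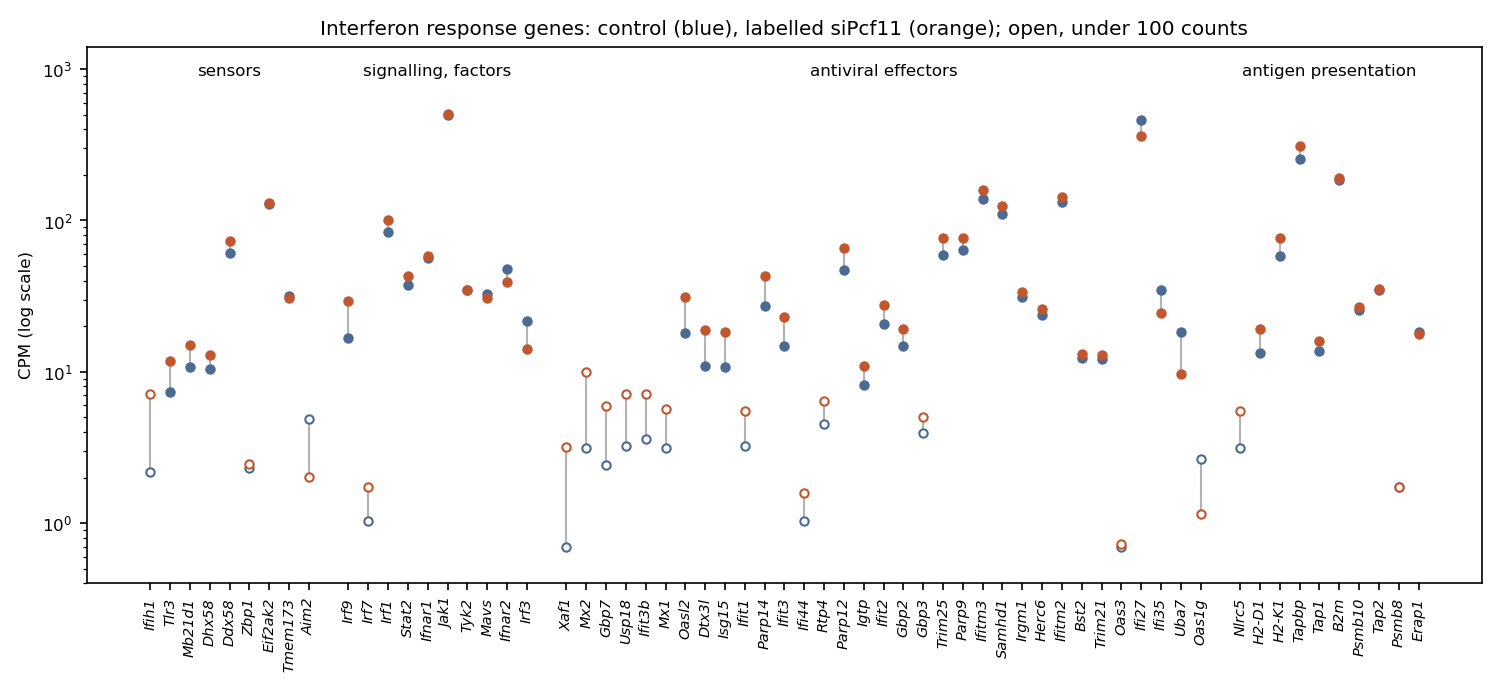
Level in CPM on a log axis of interferon response genes listed in both libraries, by role and sorted by ratio, with the control in blue and the library labelled siPcf11 in orange. Open circles are genes below 100 summed counts. Orange lies above blue for most sensors and effectors, and below it for Irf3, Uba7, Ifi35 and Ifi27.

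The promoters of several of these genes carry the interferon-stimulated response element, which the factor containing STAT2 and IRF9 recognises, and these stretches are shown to set the motif beside the measured ratios. The motif was searched as GAAANNGAAA on both strands, with overlapping matches counted, in RefSeq promoter windows of GRCm38.p6 from 250 bases before to 50 after the start. It was found in 3.44% of all 32851 windows. Taken by gene, it was found in 266 of the 7306 counted genes with a window (3.64%). Of the interferon response genes with a window, 23 of 56 had a match, and 14 of the 37 that were counted. The stretches below are 80 bases on the strand of the gene, upstream of its start, and capitals mark matches on either strand.
Isg15, chr4:156200846-156200925, minus strand: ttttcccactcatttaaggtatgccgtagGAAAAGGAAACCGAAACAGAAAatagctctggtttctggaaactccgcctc
Ifit3, chr19:34583355-34583434, plus strand: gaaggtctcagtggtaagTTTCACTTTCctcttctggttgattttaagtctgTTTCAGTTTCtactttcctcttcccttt
Gbp2, chr3:142620569-142620648, plus strand: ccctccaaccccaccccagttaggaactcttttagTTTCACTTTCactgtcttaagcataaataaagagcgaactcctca
Stat2, chr10:128270248-128270327, plus strand: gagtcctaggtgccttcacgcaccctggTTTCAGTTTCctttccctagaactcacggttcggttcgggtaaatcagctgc
Irgm1, chr11:48871421-48871500, minus strand: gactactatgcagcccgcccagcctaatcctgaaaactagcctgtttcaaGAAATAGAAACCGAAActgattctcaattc
B2m, chr2:122147513-122147592, plus strand: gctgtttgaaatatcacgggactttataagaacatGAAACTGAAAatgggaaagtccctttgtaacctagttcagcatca

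Genes with a match had both large and small ratios. Isg15 (log2 ratio 0.78) and Ifit3 (0.64) were higher, Gbp2, a guanylate-binding protein with 128 and 132 counts, was at 0.37, and Stat2 (0.18), Irgm1 (0.13) and B2m (0.06), each with a match, were closer to 0. Of the 14 counted interferon response genes with a match 13 were above 0, with a median of 0.15. Of the 23 with a window but no match 18 were above 0, with a median of 0.23. Among all counted genes, the 266 with a match had a median of 0.04 and the 7040 without one of 0.00. A match in this window is a description and shows no binding.

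Basement membrane genes mostly had ratios above 0, while fibrillar collagens were divided. Of 45 extracellular matrix genes 39 were counted, 4 were below the minimum and 2 unlisted, and 25 of the 39 were above 0, with a median of 0.10. Of 8 counted basement membrane genes 7 were above 0, with a median of 0.31, against 50.4% above 0 of all counted genes. The type IV collagen chains, which form its network, had 36189 and 36452 counts (Col4a1, log2 ratio 0.34) and 23824 and 24352 counts (Col4a2, 0.36). The perlecan gene Hspg2 (0.33), the laminin chains Lama4 (0.34), Lamb1 (0.21) and Lamc1 (0.15) and the linker nidogen, Nid1 (0.29), were also higher. Sparc, a collagen-binding protein, with 37400 and 28003 counts, was the exception at -0.09.

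The fibrillar and associated collagens, 9 of 9 counted, had a median of -0.04. Col1a2 (0.14) and Col1a1 (71107 and 54613 counts, -0.05), whose products assemble into one molecule, had ratios of opposite sign. So did Col5a2 (0.12) and Col5a1 (11071 and 7243 counts, -0.29), and Col6a3 (0.23) and Col6a1 (14732 and 9958 counts, -0.24). In the same libraries the elastic fibre gene Fbln2 had 22436 and 24152 counts (0.43) and thrombospondin, Thbs1, 11110 and 11776 (0.41). Both lie above the central 95% of genes of their depth (-0.24 to 0.38), while Col4a1 and Col4a2 lie within it. Plod2, which hydroxylates collagen lysines, had 242 and 143 counts (-0.43, interval -0.74 to -0.13).

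Targets of TGF-β and of YAP, pathways that raise contractile and matrix genes in fibroblasts, were mostly above 0. Of 13 counted, 11 were above 0, with a median of 0.33, 2 were at least 1.5-fold higher, and Cnn1 was unlisted. Of all counted genes 50.4% were above 0 and 2.15% at least 1.5-fold higher. Acta2, smooth muscle actin, had 17040 and 20650 counts (log2 ratio 0.60, interval 0.57 to 0.63). Of the 203 genes with at least 10000 counts it was the only one past 1.5-fold. Myl9, the regulatory light chain of smooth muscle myosin, had 335 and 423 counts (0.66), Lats2, a kinase that restrains YAP, 524 and 594 (0.51), and Tagln, transgelin, 645 and 647 (0.33). The matrix regulators Ctgf (162 and 145, 0.17) and Cyr61 (1862 and 1604, 0.11), the best known YAP targets, had smaller ratios. Ankrd1 (151 and 94, -0.36) and Tgfbi (636 and 420, -0.27) were below 0. Of the 11 counted immediate early genes 6 were above 0, with a median of 0.03, led by Fosl1 (274 and 283, 0.37), while Jund (554 and 354) was at -0.32. Over both groups, 24 of 28 genes were counted and 2 were unlisted, and the median was 0.19. At a minimum of 300 counts the median of the 19 genes left was 0.11.

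Adipogenesis genes had more ratios above 0 than below, but 2 lipid droplet genes, Plin4 (-0.93) and Lipe, were the lowest. Of 47 genes 28 were counted, 8 were below the minimum and 11 unlisted, and 19 of the 28 were above 0, with a median of 0.08. Of all counted genes 50.4% were above 0. Counting intervals lay above 0 for 4 of the 28 and below it for 3, against 19.5% and 19.7% of all counted genes. Of the 8 below the minimum 5 had more counts in the library labelled siPcf11, with Zfp423 at 23 and 54, and 3 had fewer. No share over all genes below the minimum was computed to set beside these. Of 9 counted early regulators 8 were above 0, and no interval among them excluded 0. Dlk1, the preadipocyte factor that holds back differentiation, had 4917 and 4892 counts (log2 ratio 0.32, interval 0.26 to 0.38). The early regulators Cebpb (934 and 795, 0.09) and Cebpd (100 and 85, 0.09) and the late regulator Pparg (201 and 187, 0.22) had intervals that include 0. Products of fat cells differed from each other. Plin2, a lipid droplet protein of many cell types, was at 0.24 and Fasn, fatty acid synthase, at 0.19. Fabp4, a fatty acid carrier, had 845 and 552 counts (-0.29), and Lipe, hormone-sensitive lipase, 109 and 43 (-1.02, interval -1.56 to -0.49). Pnpla2, the lipase that acts before Lipe, had 121 and 128 (0.41).

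Cell cycle genes were centred near 0, with single genes off it. Of 55 genes 54 were counted and 1 was below the minimum, 30 were above 0, and the median was 0.01, or -0.02 when scaled by library totals. Of the D-type cyclins that drive entry into the cycle, Ccnd1 (1985 and 2047 counts, 0.37) and Ccnd2 (1269 and 1351, 0.42) were higher, and Ccnd3 had 365 and 319 counts (0.13, interval -0.09 to 0.35). Their kinase Cdk4 was lower, with 2572 and 1536 counts (-0.42, interval -0.51 to -0.33). Tyms, thymidylate synthase (768 and 429, -0.51), was also lower. Of 17 genes of G2 and mitosis 12 were below 0, against 4537 of all 9143 counted genes, with a median of -0.04. The lowest were Kif11 (626 and 407, -0.29) and Kif20a (2508 and 1754, -0.19). Top2a, the topoisomerase of dividing cells, with 7037 and 5464 counts, was at -0.04. Mdm2, the ubiquitin ligase of p53, had 34194 and 30366 counts (0.16), the 12th largest count of the control. Other genes of p53 response pointed both ways, from Phlda3 (722 and 742, 0.37) to Btg2 (71 and 40, -0.50), and Cdkn1a (726 and 585) was at 0.02.

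Inflammatory genes under NF-κB had more ratios below 0 than above. Of 27 genes 17 were counted, 3 were below the minimum and 7 unlisted, among them Il6, Tnf and Il1b. Of the 17, 12 were below 0, against 4537 of all 9143 counted genes, with a median of -0.12. At a minimum of 300 counts the median of the 13 genes left was -0.06. The factor's own subunits Nfkb2 (2909 and 1888 counts, log2 ratio -0.30), Relb (221 and 140, -0.33) and Rela (802 and 555, -0.20) were lower, and Nfkb1 (1380 and 1121) was at 0.03. The chemokine Cxcl1 had 96 and 54 counts (-0.50), and Ccl2 had 440 and 337 (-0.06). Csf1, a growth factor for macrophages, was highest of the group with 2028 and 1807 (0.16).

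Stress response genes had a median of 0.03, or -0.01 when scaled by library totals, with 33 of 35 counted, 1 below the minimum, 1 unlisted and 18 above 0. Chaperones of the endoplasmic reticulum with many reads were lower. Calr, calreticulin, had 49144 and 31185 counts (log2 ratio -0.33, interval -0.35 to -0.31), and Hsp90b1 had 26998 and 18265 (-0.24, interval -0.26 to -0.21). Hspa5, the chaperone BiP, with 11025 and 8614 counts, was at -0.03. Xbp1, a transcription factor of the unfolded protein response, had 220 and 111 (-0.66). Of the integrated stress genes Atf4 was at 0.00, Ddit3, the factor CHOP, had 2730 and 1761 (-0.31), and Vldlr had 66 and 34 (-0.63). The antioxidant genes Hmox1 (983 and 1077, 0.46) and Nqo1 (673 and 377, -0.51), both known targets of NRF2, had opposite signs.

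Genes of energy and sterol metabolism differed little, and 50.4% of all counted genes were above 0. Oxidative phosphorylation had 26 of 38 counted genes above 0 and a median of 0.11, from 0.50 for Cox6a1 to -0.43 for Cycs, cytochrome c. Ribosomal proteins had 24 of 36 above 0, with 1 more below the minimum and a median of 0.11, from 0.30 for Rpl19 to -0.26 for Rps19. Glycolysis and hypoxia genes, 17 of 22 counted, had 13 above 0 and a median of 0.07, with the pyruvate kinase Pkm at 15238 and 15015 counts (0.31). Gapdh, a glycolytic enzyme with many pseudogenes, is listed with only 53 and 60 counts (0.51). How reads shared with such copies were counted is not given, which touches ribosomal protein and histone genes as well. Cholesterol and fatty acid synthesis, 22 of 22 counted, had 13 above 0 and a median of 0.07. Within it the last steps of the sterol pathway were split between Dhcr7 (183 and 213, 0.55) and Sc5d (637 and 359, -0.50), and Acaca, the first enzyme of fatty acid synthesis, was at 0.35.

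RNA splicing genes, 28 of 28 counted, had 14 above 0, 14 below and a median of -0.01, from Srsf3 (1286 and 1263 counts, 0.30) to U2af1l4. Histone mRNAs end without a poly(A) tail and need processing factors of their own. Of 12 genes of that machinery and of the Integrator complex 10 were counted and 2 below the minimum. Of the 10, 8 were below 0, against 4537 of all 9143 counted genes, with a median of -0.16. Lsm10, a subunit of the U7 particle that guides histone cleavage, had 102 and 37 counts (log2 ratio -1.14, interval -1.72 to -0.58), and Slbp, which binds the histone stem-loop, had 929 and 660 (-0.17). Neither library lists any of the 13 messenger RNAs of the mitochondrial genome or any of 15 nuclear and host noncoding RNAs such as Malat1 and Gas5, so nothing can be read about them here.

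**Figure D5:**
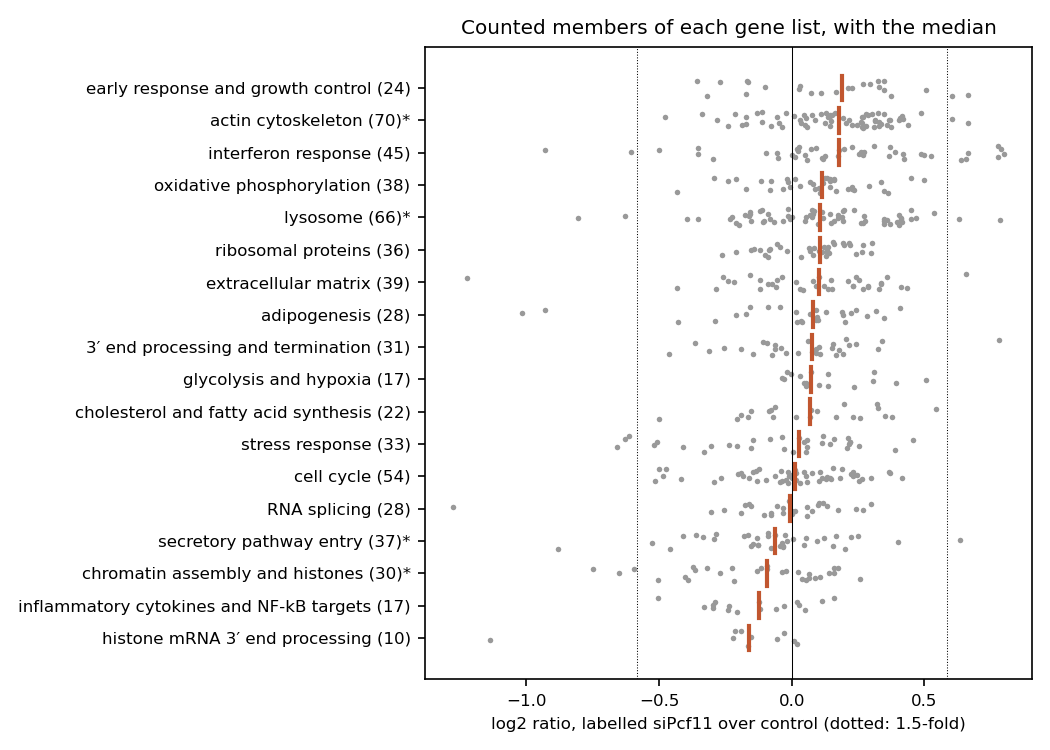
Log2 ratio of each counted member of the gene lists, as grey points, with the median as an orange bar, the number counted in brackets and dotted lines at 1.5-fold. Asterisks mark the lists added after values were seen, and the other lists were chosen with earlier results of these data known. Medians run from -0.16 for histone mRNA processing to 0.19 for early response and growth control (0.11 at a minimum of 300 counts), and each list holds members on both sides of 0.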

How the data were processed

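RNA-seq of total RNA was available for 2 3T3-L1 libraries, grouped by title with 1 library per group. The authors deposited a table per library of gene symbols and raw read counts, whole numbers that differ in total between libraries. Cutadapt, Bowtie2, STAR and mm9 appear in the submitters' processing notes, with neither role nor version. The counter, the annotation, the strand setting and the handling of shared reads were, for these files, not given in the sources used here. An unlisted gene may have had up to a few reads, since the lowest listed count is 5. It may also be missing for another reason, as neither library lists any mitochondrial messenger RNA.

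Counts were scaled by TMM in edgeR 4.0.16 (R 4.3.3). CPM, log2 ratios and exact conditional binomial (Clopper-Pearson) 95% intervals were computed with Python 3.11.15 and scipy 1.17.1, and the intervals were tested on simulated counts. No p-value was computed, as each group has 1 library. PCR copies are not independent molecules, so intervals and bounds cover counting error only. Genes with at least 100 counts summed over both libraries are called counted. Named were Pcf11, the 15 genes at each end by the bound of the interval nearest 0 (predicted genes, clones, small RNAs and pseudogenes left out), of each list the 2 highest and 2 lowest by ratio and the 2 with most reads, and cell type markers. Other members were named after their values were seen. Some genes are not reported here. Members and all 20 gene lists were chosen with earlier results of these data known, and 4 of the lists were added after values were seen. No coding lengths were at hand, so levels per kilobase and ratios by gene length were not analysed here. Promoter sequences are those of RefSeq for GRCm38.p6, matched by symbol, and gene overlaps were read from the RefSeq gene table of that build, another build than mm9, with no coordinates of it used for the counts. Other settings were library totals, DESeq2 1.42.0 size factors, upper quartile scaling and other count minimums.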

Additional observations from a re-analysis of the deposited data

How the results depend on the processing

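No paired analysis was possible because each group has 1 library. The counts of genes past a fold depended on the count minimum and little on the scaling. At a minimum of 30 counts, 431 genes were at least 1.5-fold higher and 620 lower, and 104 were at least 2-fold higher and 152 lower. With no minimum these counts were 591, 749, 178 and 201, and at a minimum of 300 counts 55, 110, 1 and 7. Requiring the whole counting interval past the fold, chosen after seeing the data, left 14, 44, 1 and 2. The median of RNA splicing genes changed sign with upper quartile scaling (0.00759) and at a minimum of 300 counts (0.000515). With library totals the medians of cell cycle (-0.0191) and stress response (-0.00645) genes changed sign, as did the ratios of Col3a1 (-0.000959), Copg1 (-0.0264), Ints11 (-0.0116), Ints4 (-0.0221), Jak1 (-0.00758) and Pdgfrb (-0.0164). Library totals lower every ratio by 0.03 against TMM. Other list medians kept their sign but moved by over 1.5 times. At a minimum of 300 counts these were early response and growth control (0.111), inflammatory (-0.0582), adipogenesis (0.0532) and stress response (0.0458) genes, and at 30 counts stress response (0.0150). With library totals they were 3′ end processing (0.0447), adipogenesis (0.0476), cholesterol synthesis (0.0380), glycolysis (0.0404), secretory entry (-0.0948) and splicing (-0.0379) genes, and with upper quartile scaling cell cycle (0.0263) and stress response (0.0390). Over all settings, 535 of 576 values had the sign reported and lay within the counting interval of a gene, within the spread of a list or, for counts of genes, within 1.5 times. A prior of 2 counts, also chosen after seeing the data, gave 185 genes at least 1.5-fold higher and 304 lower. Ratios by coding length were not run, as no coding lengths were at hand. Depth limits genes below about 300 counts, and no setting can stand in for replicate libraries.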

Other observations

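The lists in this section were drawn up after values of these libraries had been seen, so their counts are descriptions. Over all counted genes 50.4% had a ratio above 0. Actin cytoskeleton genes had 54 of 70 counted members above 0, with 1 more below the minimum and 1 unlisted, and a median log2 ratio of 0.18. Crosslinkers and bundlers, which tie filaments into networks and cables, had 14 of 15 above 0 and a median of 0.31. Plastin, Pls3, was the highest of them, with 2332 and 2520 counts, control first. Its log2 ratio for the library labelled siPcf11 over the control was 0.44. α-actinin, Actn4 (5911 and 6106), was at 0.37 and filamin, Flna (39436 and 36482), at 0.21. Caldesmon, Cald1 (23156 and 18016), was the lowest at -0.04. Adhesion site genes had 12 of 13 above 0 and a median of 0.19, with the fibronectin receptor chain Itga5 at 0.36 (3554 and 3632 counts) and vinculin, Vcl, at 0.25. The 15 nucleators of filaments had a median of 0.05 and held the lowest member, Enah (1360 and 779, -0.48). Actins themselves were split, with Actb at 0.27 (13907 and 13361) and Actg1 at -0.24 (1893 and 1279).

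Serum response factor, which drives many actin genes, binds the CArG box. The CArG box, searched on both strands, was found in 1.63% of all 32851 promoter windows. Taken by gene, it was found in 116 of the 7306 counted genes with a window (1.59%). Of the actin cytoskeleton genes with a window, 8 of 64 had a match, and 7 of the 62 that were counted. The 7 counted genes with a match had a median of 0.25 and the 55 with a window but no match of 0.15. Over all counted genes the order was the other way, with a median of -0.03 for the 116 with a match, 52 of them above 0, and of 0.00 for the 7190 without one. Stretches of 80 bases upstream of the start (RefSeq, GRCm38.p6, strand of the gene, match in capitals) are shown for a gene with a large ratio, one near the group's median and one below 0. A match shows no binding.
Myl9 (0.66), chr2:156775268-156775347, plus strand: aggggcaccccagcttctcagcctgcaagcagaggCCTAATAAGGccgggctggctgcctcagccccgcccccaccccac
Cnn2 (0.26), chr10:79988509-79988588, plus strand: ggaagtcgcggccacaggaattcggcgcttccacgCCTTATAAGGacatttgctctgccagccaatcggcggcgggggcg
Actg1 (-0.24), chr11:120348541-120348620, minus strand: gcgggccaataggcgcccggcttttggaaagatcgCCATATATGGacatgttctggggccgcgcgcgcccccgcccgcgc

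Lysosomal genes had 42 of 66 counted members above 0, with 6 more below the minimum, 3 unlisted and a median of 0.11. Among the hydrolases and their activators Lipa (0.79) and prosaposin, Psap (5616 and 5924 counts, 0.40), were higher. The protective protein Ctsa had 3055 and 1576 (-0.63, interval -0.72 to -0.54). Subunits of the proton pump pointed both ways, from Atp6ap2 (837 and 968, 0.54) to Atp6v1g1 (444 and 269, -0.40).

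Genes of entry into the secretory pathway had 25 of 37 counted members below 0, with 1 more below the minimum and a median of -0.06. The lowest were Ssr4, a subunit of the translocon-associated complex (534 and 231 counts, -0.88, interval -1.11 to -0.66), and Srpr, the receptor for the signal recognition particle (1342 and 742, -0.53). The highest was Sec11c, a catalytic subunit of the signal peptidase (156 and 193, 0.63). Genes of chromatin assembly and histones had 18 of 30 counted members below 0, with 1 more below the minimum, 1 unlisted and a median of -0.09. The variant histone H2afj (1387 and 658, -0.75), the centromere protein Cenpb (4123 and 2096, -0.65) and the remodeller subunit Smarcc2 (3861 and 2037, -0.60) were each at least 1.5-fold lower. Supt16, a subunit of the histone chaperone FACT, had 2365 and 2131 (0.18).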
